A study of Mus musculus with 12 samples.

Results

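The 43 genes described here carry out DNA replication or drive cells from G1 into S phase. The list was made by gene name and known function, with earlier results of these data known. A gene was measured when at least 1 probe with its symbol had a detection p-value under 0.05 on at least 3 arrays, and its brightest such probe stood for it. By this rule 41 of the 43 genes were measured, among 10526 genes in all. Pola1, the catalytic subunit of polymerase alpha, was detected on 1 array, and Slbp, which binds histone mRNA, on 0 arrays. Pole2, an accessory subunit of polymerase epsilon, met the rule with detection on 9 of 12 arrays. The probes of the other 40 genes were detected on all 12 arrays.

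The cells were double-negative thymocytes, the immature thymic precursors without CD4 and CD8, sorted from C57BL/6 mice aged 2 months. RNA was read on Illumina mouse BeadChips as 1 log2 intensity per probe and array. The wild-type group had 6 arrays, the CD2-LMO2 transgenic group (called Lmo2) had 3, and the CD2-Lmo2 transgenic group that also lacked Lyl1 (called knockout) had 3. CD2 control elements direct a transgene to T-lineage cells, so Lmo2, a leukaemia oncogene normally silenced as T cells commit, stays on. Lyl1 encodes a transcription factor that can join LMO2 in a complex. Both transgenic groups therefore share the transgene, and no group had the knockout alone. The labels do not tie an array to a mouse, so the p-values reflect sample-to-sample spread that may be partly technical.

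Before a cell copies its DNA, Cdc6 and Cdt1 load the Mcm2 to Mcm7 helicase ring onto origins. Cyclin E activity and E2F transcription factors then commit the cell to S phase, when primase, the polymerases, the sliding clamp, nucleotide enzymes and histone chaperones work at the forks. In the thymus, double-negative cells go through bursts of division, strongest after a productive T-cell receptor beta rearrangement. On bulk arrays such as these, a smaller share of cycling cells and less of an mRNA in each cell cannot be told apart.

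E2F factors bind letters shared by many of these genes' promoters. RefSeq (GRCm38.p6) gave promoters, 250 bases before to 50 after the start, for 36 of the 43 genes. The motif searched was TTCGCGC, the variant form TTGGCGC, a further form spelled TTCCCGC, or the form spelled TTGCCGC, on both strands. At least 1 of these forms stood in 22 of them, or 61.1%. The share was 19.3% over the 8586 tested genes with a promoter and 10.9% over all 27025 genes in the table. The members' promoters were 60.8% G or C, close to the 60.1% of the tested genes. CCAAT, the letters that NF-Y binds, stood in 55.6% of the members' promoters and 43.1% of those of tested genes. TTTGAA, the CHR element of late cell-cycle genes, stood in 8.33% and 14.3%. These are matches of letters, not measured sites.

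Stretches of 3 E2F-type promoters and 1 without a full E2F match in its window are shown, because the genes they belong to differed in how they moved. The first 3 lines have E2F matches in capitals, overlapping matches joined. The last has CCAAT in capitals and belongs to Mcm10, which with Rfc5 passed the test in both main comparisons. Each runs 5′ to 3′ on the gene's strand. Mcm5 is chr8:75109315-75109396 on the plus strand, Mcm6 chr1:128359656-128359844 on the minus strand, Chaf1a chr17:56040330-56040405 on the plus strand and Mcm10 chr2:5012742-5012919 on the minus strand.
Mcm5: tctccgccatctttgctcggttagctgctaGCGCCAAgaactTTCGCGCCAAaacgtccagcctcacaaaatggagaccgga
Mcm6: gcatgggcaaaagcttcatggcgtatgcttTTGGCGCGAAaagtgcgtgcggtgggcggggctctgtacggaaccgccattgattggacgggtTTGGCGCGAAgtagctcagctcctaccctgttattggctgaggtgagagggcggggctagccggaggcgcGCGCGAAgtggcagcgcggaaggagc
Chaf1a: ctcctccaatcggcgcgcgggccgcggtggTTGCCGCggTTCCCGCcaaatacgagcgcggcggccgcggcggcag
Mcm10: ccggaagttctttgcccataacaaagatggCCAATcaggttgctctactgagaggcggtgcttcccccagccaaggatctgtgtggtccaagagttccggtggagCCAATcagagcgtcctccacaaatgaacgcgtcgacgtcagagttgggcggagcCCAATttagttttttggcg
Mcm5 had 3 matches, Mcm6 had 5 and Chaf1a had 2, while Mcm10 had 0 for E2F and 3 for CCAAT. The Mcm10 window ends in ttggcg, so a TTGGCGC running past its edge would not be counted. Of the 21 measured members with an E2F match, 1 fell in Lmo2 arrays by the test below, where 5.89% of all genes did. Their median difference was -0.33. Of the 13 measured members with a promoter but no match in it, 5 fell, with a median of -0.42. Only the window at each listed start was searched, so a gene without a match there may have the letters elsewhere.

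The targeted gene was read first. Lyl1 had a log2 intensity of 6.66 to 7.25 on the wild-type arrays, and read 10.01, 10.19 and 11.64 on the Lmo2 arrays. Its probe missed the detection threshold on each of the 3 knockout arrays, so Lmo2 arrays exceeded knockout arrays at least 43.03-fold (limma, adjusted p = 2e-06, n = 3 and 3). The bound sets the Lmo2 mean against the lowest signal of any detected probe on each knockout array. The array's mouse Lmo2 probe read 6.77 to 8.62 in wild-type and 5.75 to 7.35 in Lmo2 samples. No source here states whether that probe can read the transgene, and its level was not used as a check.

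Arrays of one group also differed in genes of sex. Xist, the RNA of the inactive X chromosome in female cells, was detected on wild-type replicates 4 to 6, Lmo2 replicates 1 and 3 and knockout replicate 1, at 11.59 to 12.88. On the other 6 arrays Xist read 4.46 to 4.61, and Eif2s3y, on the Y chromosome, read 9.82 to 10.76. The labels give no sex. Wild-type replicates 4 to 6 are also the arrays whose raw columns carry the word NHD13, so sex and that unexplained name cannot be told apart within the wild-type group. Array medians were 4.88 to 4.89 and 37.9 to 43% of probes were detected. Replicates correlated at 0.96 to 0.993 in wild-type, 0.944 to 0.966 in Lmo2 and 0.982 to 0.99 in knockout arrays, and 0 pairs were identical.

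Lmo2 arrays were then compared with wild-type arrays, which asks what the transgene did to the replication genes. All 41 measured genes had a lower mean on the Lmo2 arrays (100% of members, against 51.8% of all genes). Their median difference was -0.38 log2 units, against -0.02 over all genes. The test called 7 of the 41 lower (17.1%), where it called 5.89% of all genes lower. These were Mcm10 and Gins2 of the helicase and licensing genes, Pold2 of polymerase delta and Rfc5 of the clamp loader. The others were Tk1 of nucleotide salvage, cyclin E1 (Ccne1) and Chaf1a of the histone chaperone CAF-1. It called 0 members higher, where 6.64% of all genes were, and 0 at an unadjusted p under 0.05, where 13.4% of all genes were. The other 34 did not pass, and 19 of the 41 were lower at an unadjusted p under 0.05, where 12.8% of all genes were.

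**Figure D1:**
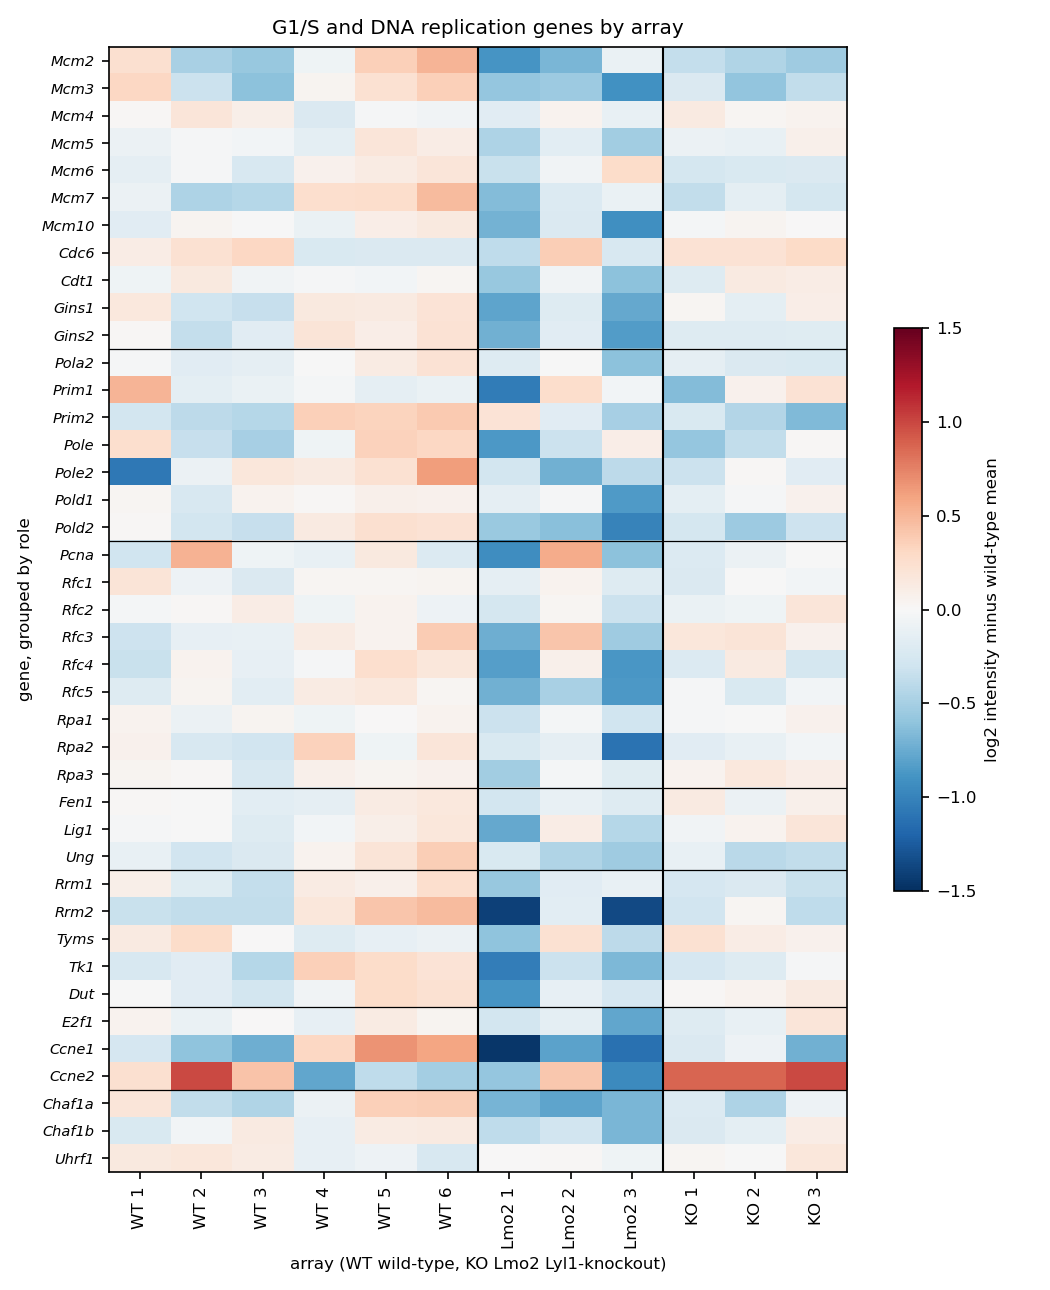
Heat map of the 41 measured genes (rows, grouped by role) on the 12 arrays (columns), coloured by log2 intensity minus the wild-type mean. Lmo2 arrays 1 and 3 are blue for most genes, Lmo2 array 2 is paler, and the knockout arrays are pale for most genes, with Ccne2 the darkest red.

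Among the helicase and licensing genes, 2 of 11 fell. Mcm10, which joins the helicase as it starts to unwind, had wild-type values from 11.60 through a median of 11.79 to 11.92. Its Lmo2 values were 11.06, 11.56 and 10.85, all below every wild-type array, a difference of -0.62 ± 0.15 (SE, adjusted p = 0.019). A dimmer second probe of Mcm10 gave -1.11 (adjusted p over all kept probes = 0.036). Gins2, of the GINS complex that holds the helicase to the polymerase, read 9.79 to 10.36 with a median of 10.20 on wild-type arrays. Its Lmo2 values were 9.43, 9.97 and 9.31, so array 2 lay inside the wild-type range while arrays 1 and 3 lay below it, and the difference was -0.57 ± 0.17 (adjusted p = 0.049).

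The Mcm2 to Mcm7 ring itself was uneven. Mcm2 read 11.43, 12.09 and 12.51 as lowest, median and highest wild-type value, and 11.11, 11.31 and 11.90 on the Lmo2 arrays, a difference of -0.56 ± 0.26 that did not pass (adjusted p = 0.19). Mcm5 read 13.27, 13.38 and 13.59 on wild-type arrays and 12.95, 13.25 and 12.89 on Lmo2 arrays. Its groups did not overlap, yet its difference of -0.38 ± 0.13 did not pass (adjusted p = 0.074). Mcm6 read 12.53, 12.80 and 12.96 on wild-type arrays and 12.43, 12.72 and 13.05 on Lmo2 arrays, with 1 array below and 1 above the wild-type range. Its difference of -0.04 ± 0.15 was the smallest of the 11, and Mcm3 had the largest at -0.68 ± 0.22 (adjusted p = 0.062).

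The loaders of that ring were unlike each other, and neither passed. Cdc6 read 10.39, 10.56 and 10.93 on wild-type arrays and 10.23, 10.98 and 10.37 on Lmo2 arrays, so Lmo2 array 2 was above every wild-type array and the others below (difference -0.08 ± 0.19, adjusted p = 0.82). Cdt1 read 12.10, 12.14 and 12.32 on wild-type arrays and 11.60, 12.11 and 11.56 on Lmo2 arrays. Array 2 was again at the wild-type level, and the difference was -0.41 ± 0.15 (adjusted p = 0.091).

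Of the 7 measured polymerase and primase genes, Pold2 fell. It read 10.96, 11.38 and 11.54 on wild-type arrays and 10.74, 10.67 and 10.30 on Lmo2 arrays, a difference of -0.73 ± 0.17 (adjusted p = 0.014) with no overlap. The other 6 ranged from Prim2, a primase subunit, at -0.16 to Pole2 at -0.46. Pole2 was detected on 5 of 6 wild-type, 1 of 3 Lmo2 and 3 of 3 knockout arrays, so its Lmo2 level rests on signals near background.

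Among the 9 genes of the clamp, its loader and the single-strand binding protein RPA, Rfc5 fell. Its wild-type values were 10.30, 10.52 and 10.65, and its Lmo2 values were 9.76, 10.001 and 9.63. The groups did not overlap, and the difference of -0.69 ± 0.13 had the lowest adjusted p of the 41 genes (0.0043). Its other kept probes were dim and gave -0.17 and -0.0049. Pcna, the sliding clamp, read 8.78, 8.99 and 9.60 on wild-type arrays and 8.15, 9.63 and 8.46 on Lmo2 arrays. It stood below all wild-type arrays on 2 Lmo2 arrays and above them all on the third, array 2 (difference -0.33 ± 0.28, adjusted p = 0.49). The smallest difference in this group was that of Rfc1, at -0.09.

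Fen1, Lig1 and Ung, which remove RNA primer flaps, seal nicks and remove uracil, gave -0.19, -0.36 and -0.40, and 0 of the 3 passed, with 1 of them under an unadjusted p of 0.05. Among the 5 nucleotide supply genes, Tk1, thymidine kinase, fell. It read 11.08, 11.53 and 11.87 on wild-type arrays and 10.48, 11.19 and 10.84 on Lmo2 arrays, a difference of -0.68 ± 0.21 (adjusted p = 0.0499). Array 2 lay inside the wild-type range. Rrm2, the regulated subunit of ribonucleotide reductase, read 10.38, 10.67 and 11.23 on wild-type arrays and 9.35, 10.59 and 9.39 on Lmo2 arrays. It had the largest difference of this group, -0.97 ± 0.30, but missed the threshold (adjusted p = 0.0503). Tyms, thymidylate synthase, had the smallest, -0.25 ± 0.18, with 12.03, 12.17 and 12.49 on wild-type arrays and 11.62, 12.44 and 11.82 on Lmo2 arrays (adjusted p = 0.40).

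The G1/S regulators gave the largest member difference. Ccne1 read 7.38, 8.15 and 8.79 on wild-type arrays and 6.65, 7.31 and 6.99 on Lmo2 arrays, a difference of -1.13 ± 0.32 (adjusted p = 0.039). All 3 Lmo2 arrays lay below the 6 wild-type arrays, the nearest by little. Ccne2, the other E-type cyclin, read 8.20, 8.91 and 9.97 on wild-type arrays and 8.40, 9.39 and 8.02 on Lmo2 arrays, a difference of -0.38 ± 0.38 (adjusted p = 0.57). E2f1 read 10.86, 11.01 and 11.10 on wild-type arrays and 10.71, 10.84 and 10.20 on Lmo2 arrays. Its groups did not overlap, but its difference of -0.40 ± 0.15 did not pass (adjusted p = 0.12).

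Of the chromatin genes, Chaf1a fell. It read 10.23, 10.73 and 11.05 on wild-type arrays and 9.98, 9.89 and 9.99 on Lmo2 arrays, a difference of -0.73 ± 0.20 (adjusted p = 0.031), with Lmo2 arrays close together and below all wild-type arrays. Uhrf1, which guides maintenance DNA methylation, had the smallest difference of all 41, -0.01 ± 0.13. In all, 8 of the 41 genes had every Lmo2 array below every wild-type array (19.5%), against 7.29% of all genes. Further kept probes existed for 19 of the genes, 38 probes in all, of which the second Mcm10 probe alone passed. In 9 genes at least 1 further probe had a difference above 0, and the widest were the dim probes of Mcm4 at 1.07 and Mcm6 at 0.83, which did not pass.

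**Figure D2:**
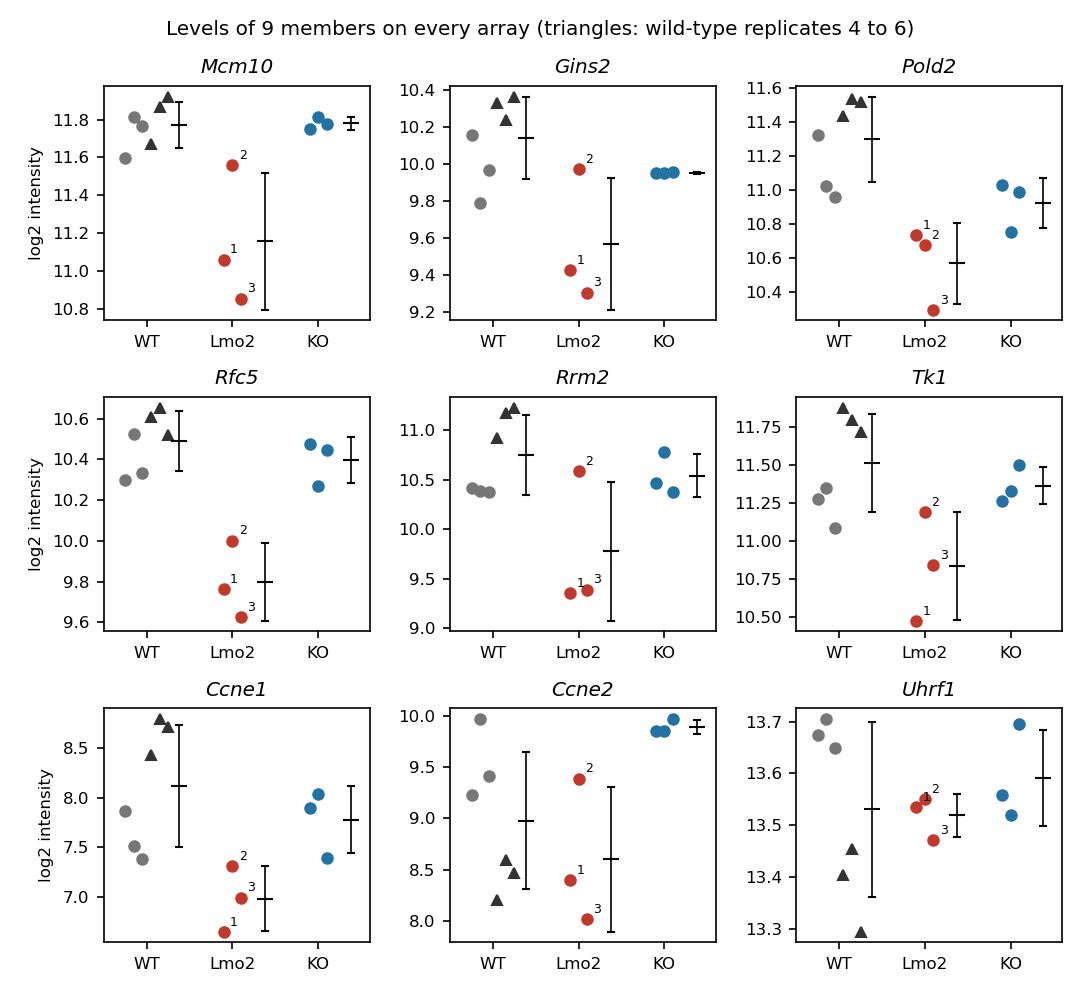
Log2 intensity of 9 genes on every array, with the mean and SD of each group beside the points, wild-type replicates 4 to 6 as triangles and Lmo2 arrays numbered. Lmo2 array 2 is the highest Lmo2 array for all but Pold2, and the 3 knockout arrays of Ccne2 sit between 9.85 and 9.97.

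The single Lmo2 arrays were unlike each other. Array 1 had 31 of the 41 genes below all wild-type arrays and array 3 had 29, against 25.3% and 24.8% of all genes. Array 2 had 10, which is 24.4% of members against 23.8% of all genes. It was the highest Lmo2 array for 31 members (75.6%), and for 30.2% of all genes. The members' median deviation from the wild-type mean was -0.57, -0.13 and -0.53 on arrays 1, 2 and 3, and -0.16 to 0.17 on the wild-type arrays. The gap between array 2 and the mean of the others was widest for Pcna at 1.33, Rrm2 at 1.21 and Ccne2 at 1.18. It was below 0 for 6 members, from Mcm6 at -0.02, Prim2 at -0.03, Ung at -0.06 and Chaf1a at -0.10 to Mcm2 at -0.20 and Pole2 at -0.39. Without Lmo2 replicate 2 the test called 14 members lower, where it called 5.81% of all genes. Without replicate 1 it called 2 members against 5.25% of all genes, and without replicate 3 it called 1 against 4.66%.

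Array 2 was also the Lmo2 array without Xist, so the comparison was repeated within each kind of array, in 1 fit with a mean for each group and kind. With Xist detected (2 Lmo2 and 3 wild-type arrays), 21 of the 41 members were lower, where 11.3% of all genes were, and the members' median was -0.58. This comparison leaves out array 2, which had already been seen to stand apart, and was chosen after seeing the data. Without Xist there was 1 Lmo2 array, so its differences from 3 wild-type arrays are given with no test. Their median was -0.03, and 23 of the 41 were below 0. Rrm2, for example, differed by -1.73 with Xist and by 0.19 without. With the kind of array as a block, 9 members were lower, where 7.67% of all genes were, among them all 7 named above, and the median was -0.37. Sex and what else sets array 2 apart cannot be told apart here.

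Wild-type replicates 4 to 6 were also compared with wild-type replicates 1 to 3. These sets differ in Xist and in the NHD13 name, so sex, that name and other spread cannot be told apart here. Between them 3 members differed (7.32%), against 6.7% of all genes, a share near that background. Mcm7 was higher on replicates 4 to 6 by 0.66 ± 0.17 (adjusted p = 0.046), Prim2 by 0.73 ± 0.18 (adjusted p = 0.038) and Ccne1 by 1.05 ± 0.22 (adjusted p = 0.023). The Ccne1 difference between wild-type sets is nearly as large as that between Lmo2 and wild-type arrays. Ccne2 went the other way, by -1.11 ± 0.31 (adjusted p = 0.053), and the median over members was 0.22. Against wild-type replicates 1 to 3 alone limma called 0 members lower in Lmo2 arrays, and against replicates 4 to 6 alone it called 14. The share of all genes called lower moved as well, from 3.46% to 11.9%.

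Knockout arrays were compared with Lmo2 arrays to ask what loss of Lyl1 did under the transgene. This comparison shares its 3 Lmo2 arrays with the one above, so opposite signs in both follow in part from those arrays, and the values are given side by side only. The knockout mean was higher for 39 of the 41 genes, with a median difference of 0.34, against 0.01 over all genes. The test called 2 members higher (4.88%), where it called 4.79% of all genes higher, a share near that background. It called 0 lower, where 5.57% of all genes were, and 0 at an unadjusted p under 0.05, where 11.6% of all genes were. At that unadjusted level 11 members were higher (26.8%), where 11% of all genes were.

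The members called higher were Mcm10 and Rfc5. Mcm10 read 11.75, 11.81 and 11.78 on the knockout arrays, above all Lmo2 arrays, a difference of 0.62 ± 0.18 (adjusted p = 0.041). Rfc5 read 10.48, 10.27 and 10.45, also above all Lmo2 arrays, a difference of 0.60 ± 0.15 (adjusted p = 0.025). The Lmo2 against wild-type differences of both were -0.62 and -0.69. In knockout minus Lmo2 arrays the dimmer second Mcm10 probe gave 0.71, and the other kept Rfc5 probes gave 0.66 and -0.40. None of these other probes passed over all kept probes. Neither call was stable to single arrays: 0 members were called without Lmo2 replicate 1 or 3 or knockout replicate 1 or 3, and 10 without Lmo2 replicate 2. The share of all genes called higher in these fits was 4.9%, 4.08%, 3.71%, 3.32% and 5.29%, in that order.

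Ccne2 had the largest difference, 1.29 ± 0.44, which did not pass (adjusted p = 0.089). Its knockout values of 9.85, 9.86 and 9.97 were close together, above all Lmo2 arrays and at the top of the wild-type range. With the kind of array by Xist as a block it passed at 1.00 (adjusted p = 0.043), and Mcm10 did not (adjusted p = 0.060). Ccne1 read 7.89, 8.04 and 7.40 on knockout arrays, above all Lmo2 arrays by a narrow margin, at 0.79 ± 0.37 (adjusted p = 0.24). Rrm2 read 10.47, 10.78 and 10.37, with 2 knockout arrays below Lmo2 array 2, at 0.76 ± 0.34 (adjusted p = 0.21).

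The other genes that fell on Lmo2 arrays had positive differences that did not pass. Gins2 read 9.95, 9.95 and 9.96 on knockout arrays (0.38 ± 0.20), all just below Lmo2 array 2. Pold2 read 11.03, 10.76 and 10.99 (0.36 ± 0.20), Tk1 11.26, 11.33 and 11.50 (0.53 ± 0.24) and Chaf1a 10.48, 10.21 and 10.60 (0.48 ± 0.23), each above every Lmo2 array. Their adjusted p ranged from 0.21 to 0.32.

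For the remaining genes followed on every array, the groups mostly overlapped. E2f1 read 10.79, 10.87 and 11.16 on knockout arrays, Cdt1 11.97, 12.30 and 12.29 and Cdc6 10.83, 10.83 and 10.90. Pcna read 8.87, 8.99 and 9.07 and Tyms 12.45, 12.33 and 12.28, and Lmo2 array 2 lay inside or above the knockout range of Pcna and Tyms. Mcm5 read 13.32, 13.29 and 13.48, above every Lmo2 array, and Mcm2 11.64, 11.55 and 11.46, inside the Lmo2 range. Negative differences were those of Mcm6, at -0.20 ± 0.17 with knockout values of 12.51, 12.55 and 12.56, and Prim2, at -0.29 ± 0.27.

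By role, the knockout minus Lmo2 median was 0.79 for the 3 G1/S regulators, 0.49 for the 5 nucleotide genes, 0.37 for the 3 chromatin genes, 0.35 for the 9 clamp, loader and RPA genes, 0.32 for the 11 helicase genes, 0.24 for the 3 flap, ligase and uracil genes and 0.15 for the 7 polymerase and primase genes. The lowest members of their groups, beside Mcm6 and Prim2, were E2f1 at 0.36, Ung at 0.11, Uhrf1 at 0.07, Rrm1 at 0.01 and Rfc1 at 0.0015. The highest were Ccne2, Rrm2, Mcm10, Rfc5, Chaf1a, Lig1 at 0.42 and Pold2. In all, 14 of the 41 genes had every knockout array above every Lmo2 array (34.1%), against 13.7% of all genes. Within the arrays with Xist detected (1 knockout and 2 Lmo2) the members' median difference was 0.40, and within the others (2 knockout and 1 Lmo2) it was 0.06. Each of these comparisons has a group of 1 array, so they are given with no test.

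**Figure D3:**
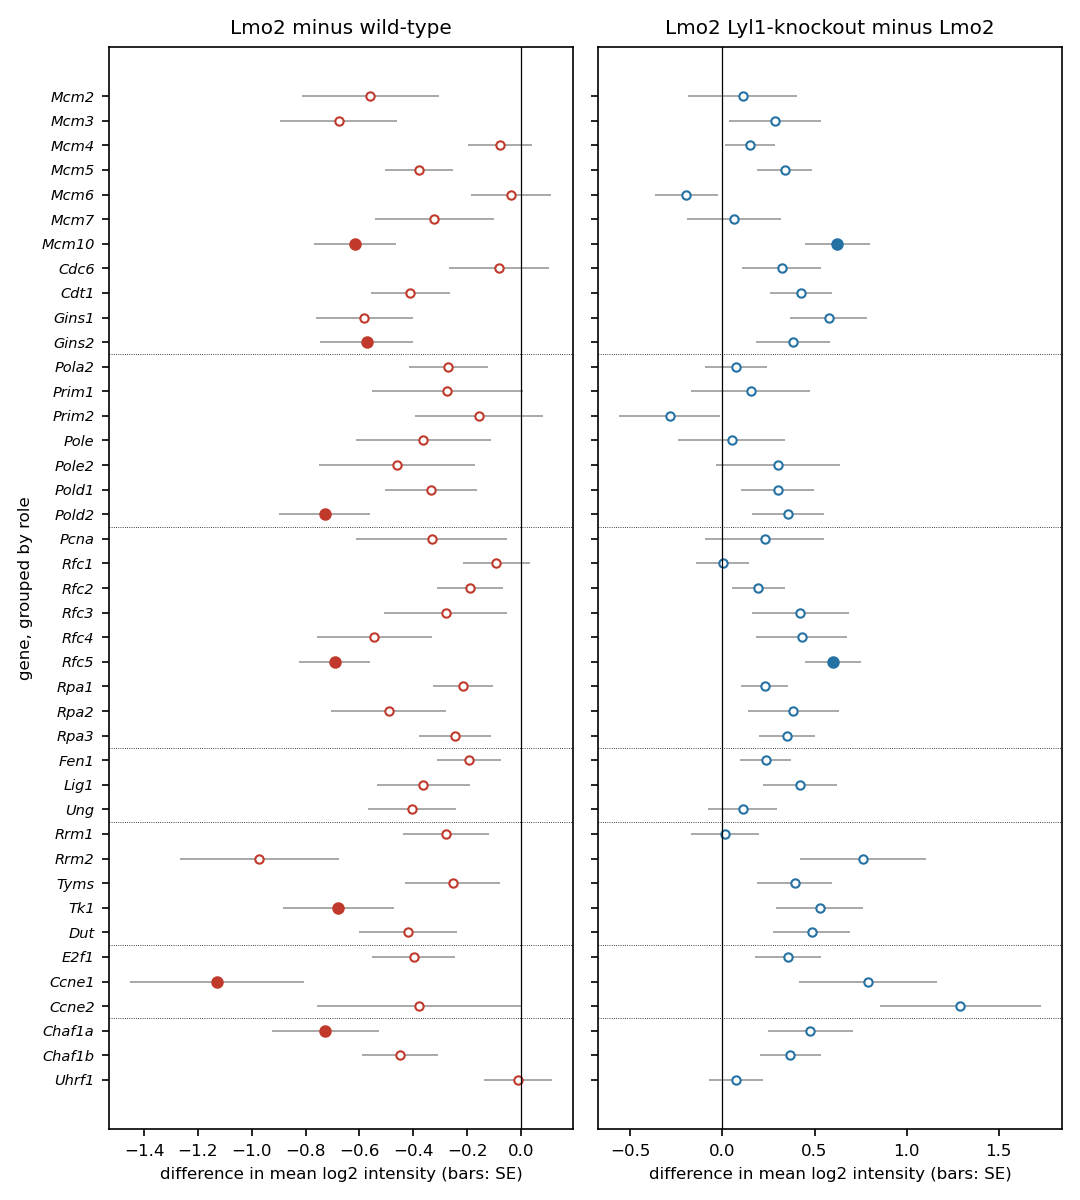
Difference in mean log2 intensity for each of the 41 genes, Lmo2 minus wild-type on the left and knockout minus Lmo2 on the right, with bars for the SE and filled points for genes past an adjusted p of 0.05. All points on the left lie below 0, and on the right all but Mcm6 and Prim2 lie above it. Both panels use the same Lmo2 arrays.

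Knockout arrays were set against wild-type arrays to see how far the genes still differed. The median member difference was -0.09, against -0.01 over all genes, and 27 of 41 were below 0. The test (limma) called 0 members in either direction, where it called 1.05% of all genes, and at an unadjusted p under 0.05 it had 1 member higher and 1 lower, where it had 6% and 6.16% of all genes. Differences ran from -0.45 ± 0.26 for Mcm2 (adjusted p = 0.50) to 0.91 ± 0.38 for Ccne2 (adjusted p = 0.37). Knockout arrays 1, 2 and 3 had 7, 6 and 4 members below all wild-type arrays, that is 17.1%, 14.6% and 9.76% of members against 13.4%, 15.2% and 17.5% of all genes. The members' median SD between arrays was 0.11 in knockout, 0.33 in Lmo2 and 0.22 in wild-type arrays, and over all genes 0.18, 0.33 and 0.28.

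Other cell-cycle genes were read beside the 41. Of 53 measured genes with other roles in replication or G1/S, 0 passed in limma's test of Lmo2 against wild-type arrays, with a median of -0.21. Of all genes, 5.89% passed as lower and 6.64% as higher. At an unadjusted p under 0.05 there were 12 of the 53 lower and 2 higher, where 12.8% and 13.4% of all genes were. In knockout against Lmo2 arrays 2 of the 53 were called higher (3.77%), below the 4.79% of all genes. E2f2, an activating E2F, rose there by 0.98 ± 0.27 (adjusted p = 0.036) and Topbp1, a checkpoint and initiation factor, by 0.78 ± 0.21 (adjusted p = 0.034). Of 31 genes of G2 and mitosis 1 was called lower in Lmo2 arrays (3.23%), below the 5.89% of all genes, and the median was -0.23. It was Mybl2, the B-Myb factor of late cell-cycle transcription, which fell by 0.61 ± 0.15 (adjusted p = 0.022). Both lists also gave their highest Lmo2 median on array 2, at 0.08 and 0.19, against -0.31 and -0.54 on array 1 and -0.15 and -0.24 on array 3.

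**Figure D4:**
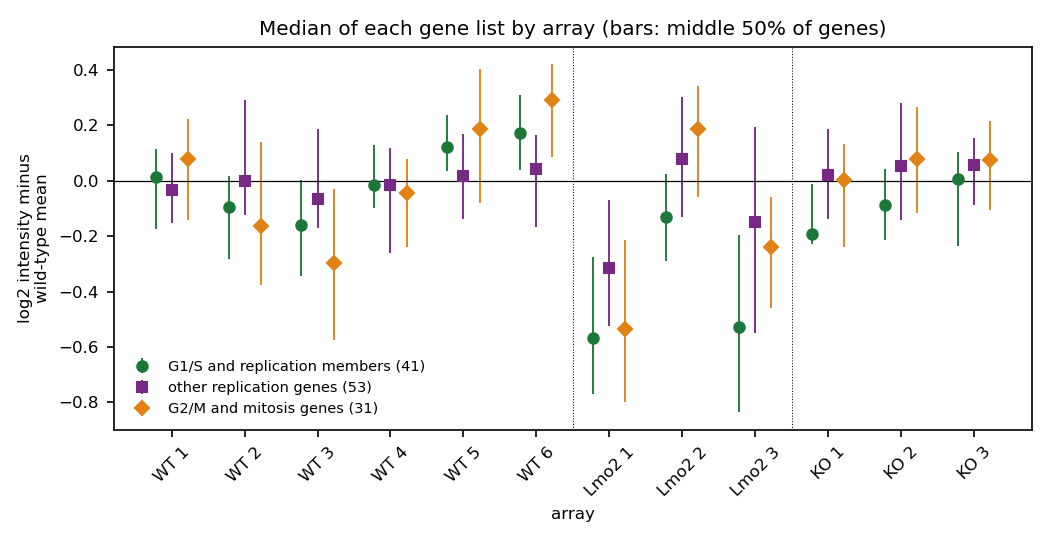
Median log2 intensity minus the wild-type mean for the 41 genes, 53 other replication genes and 31 mitotic genes on each array, with bars over the middle 50% of genes. On Lmo2 arrays 1 and 3 the 41 genes lie lower than on any other array, at -0.57 and -0.53, while on array 2 the mitotic genes lie above the wild-type mean, at 0.19.

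The genes that restrain the cycle moved in both directions, with 6 of 14 past the test in Lmo2 against wild-type arrays, where 12.5% of all genes passed in either direction. Cdkn1a, the p53-induced CDK inhibitor p21, fell by 2.52 ± 0.32 (adjusted p = 0.00023), reading 6.72, 5.56 and 5.15 on Lmo2 arrays and 7.63 to 8.83 on wild-type arrays. Cdkn2a, which encodes p16 and ARF, read 6.68, 5.82 and 6.43 on Lmo2 arrays and was not above background on any wild-type or knockout array. It was at least 2.04-fold higher than wild-type (adjusted p = 0.00077) and at least 2.18-fold higher than knockout (adjusted p = 0.00079). Foxo3, a transcription factor of quiescence, rose by 1.16 ± 0.18 (adjusted p = 0.00095) and fell in knockout against Lmo2 arrays by 1.48 ± 0.21 (adjusted p = 0.00054). Cdkn1c, the CDK inhibitor p57, rose by 1.83 ± 0.53 (adjusted p = 0.041) but read 8.47, 8.11 and 5.22, so array 3 was at the wild-type level. Btg1 and Fzr1 were the others that rose. In knockout against Lmo2 arrays 2 of the 14 were called higher and 2 lower, where 4.79% and 5.57% of all genes were. Cdkn1a rose there by 2.17 ± 0.37 (adjusted p = 0.0022), and E2f5 was the other called higher. Cdkn2a and Foxo3 were those called lower. In knockout against wild-type arrays Btg1 alone was called, higher by 1.27, where 0.637% of all genes were called higher.

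Some markers of cell types moved with the same groups. Over all genes, limma's test called 5.89% lower and 6.64% higher in Lmo2 against wild-type arrays. In knockout against Lmo2 arrays it called 5.57% lower and 4.79% higher. Of 10 double-negative thymocyte markers, all measured, Ptcra, Rag1 and Cd7 fell in Lmo2 arrays and rose in knockout against Lmo2 arrays, Rag1 by -1.57 and 1.35. Others went the other way without passing. In Lmo2 arrays 3 of the 10 were above 0, up to Il2ra at 0.57. In knockout against Lmo2 arrays 3 were below 0, down to Il2ra at -0.38. Of 6 measured markers of natural killer and innate cells, 4 fell in Lmo2 arrays and 3 rose in knockout against Lmo2 arrays. In the second of these comparisons 1 of the 6, Nkg7, was below 0, at -0.22, without passing. The summed linear intensity of the list was 10969 to 14967 in wild-type, 3435 to 6416 in Lmo2 and 5980 to 8023 in knockout arrays. Of 6 measured myeloid markers, 2 fell in Lmo2 arrays and 4 rose in knockout against Lmo2 arrays, with sums of 3463 to 14944, 1434 to 5614 and 26033 to 48774. In Lmo2 arrays 1 of the 6, Lyz2, was above 0, at 0.75, without passing. Both measured dendritic markers, Siglech and Irf8, fell in Lmo2 arrays, with sums of 415 to 718, 164 to 280.3 and 268 to 419.8. Cd8b1 fell in Lmo2 arrays and rose in knockout against Lmo2 arrays. Cd4, the other measured marker of more mature T cells, gave -0.06 and 0.08 without passing. Sox13, of gamma-delta T cells, and Pdgfrb, of stroma, rose and then fell in the same comparisons. Each was the only 1 of 4 listed markers of its cell type that was measured. The 3 measured B-cell and 2 measured erythroid markers did not pass in any of these comparisons, and Pax5, Col1a1 and Epcam did not meet the detection rule. The part of these cells in the differences of the replication genes was not tested.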

How the data were processed

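The deposited raw table gives linear intensities, with a detection p-value next to each, per the file headers. The authors' value table holds log2 values. Each of its columns matched 1 raw column after normal-exponential correction and quantile normalization (neqc, r at least 0.9999), so scale and direction are known. The submitters' processing notes name BeadStudio and limma with no version. The authors' background method was not given in the sources used. Of 45281 probes, 20651 were kept and 17126 of them carried 1 symbol.

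The value table was fitted across all 10526 genes with limma 3.58.1 under R 4.3.3 (lmFit, contrasts, eBayes, a mean per group, 9 residual degrees of freedom). Tests were two-sided, with Benjamini-Hochberg adjusted p under 0.05 over all genes, and the steps were tested on simulated data. The number of arrays limits the precision. Lists cover the 43 members in 7 role groups, other replication genes, G2 and mitosis genes, cycle brakes and markers of double-negative, more mature, gamma-delta, natural killer, B, dendritic, myeloid, erythroid and stromal cells. The members and lists were chosen with earlier results of these data known. Values on every array are given for members past the threshold and for 12 key genes, and other members by range. Same-numbered arrays of different groups deviated with correlations of -0.427 to 0.231, so the numbers were not taken as pairs. Alternatives covered the source of values, scaling, detection filter, choice of probe, variance model, array weights, a replicate block, wild-type sets, and each array left out. Blocks and splits by Xist were added after seeing the data.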

Additional observations from a re-analysis of the deposited data

Results flagged for a closer look

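Within the wild-type group, 3 of the 41 genes had 1 array far from the other 5. Prim1, a primase subunit, read 7.034 on wild-type replicate 1 and 6.378 to 6.499 on the others. Pold1, the catalytic subunit of polymerase delta, read 12.18 on replicate 2 and 12.45 to 12.5 on the others. Rpa3, the small RPA subunit, read 11.24 on replicate 3 and 11.49 to 11.56 on the others. Chance singles out about 1 group in 20 in this way. These genes passed no test in the comparisons with the wild-type group.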

How the results depend on the processing

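The median member difference of Lmo2 minus wild-type arrays stayed between -0.53 and -0.30 under the 26 alternatives, and that of knockout minus Lmo2 arrays between 0.22 and 0.45. Counts of genes past the threshold moved more. Members lower in Lmo2 arrays, 7 in the fit reported, numbered 4 with no detection filter, 4 with the mean of all detected probes, 13 with an intensity trend, 0 against wild-type replicates 1 to 3, 14 against replicates 4 to 6 and 3 with only the groups compared. Of all genes these fits called lower, in that order, 570 of 19057, then 605, 719, 364, 1252 and 480 of 10526. The fit reported called 620. Leaving out 1 array gave 1 member (Lmo2 replicate 3) to 14 (Lmo2 replicate 2), with 2 without Lmo2 replicate 1, 3 without wild-type replicate 4, 5 or 6 and 4 without knockout replicate 1 or 2. All genes called lower then numbered 480 (without wild-type replicate 6) to 670 (without wild-type replicate 3). Pold2 and Rfc5 each passed under 23 of the 26, Mcm10 under 22, Chaf1a under 16, Ccne1 under 15, Gins2 under 11 and Tk1 under 9. Members higher in knockout against Lmo2 arrays, 2 in the fit reported, numbered 0 with the mean of probes, 0 with only the groups compared and 0 to 10 with 1 array left out, and leaving out wild-type replicate 3, 4, 5 or 6 or knockout replicate 2 gave 1. In that comparison Rfc5 passed under 19 of the 26 and Mcm10 under 10. Of all genes 504 were called higher in the fit reported, 505 with the mean of probes and 269 with only the groups compared. With 1 array left out there were 342 (knockout replicate 2) to 557 (Lmo2 replicate 2). Knockout against wild-type arrays gave 0 members, but 1 higher and 6 lower with array weights and 1 higher and 2 lower against wild-type replicates 4 to 6. With a replicate block, members lower in Lmo2 arrays numbered 0, those higher in knockout against Lmo2 arrays 1, and genes past the threshold 606 and, for knockout against wild-type, 31; the numbers do not pair the arrays. Over all genes, Lmo2 against wild-type gave 1319, and 740 against replicates 1 to 3 and 2424 against replicates 4 to 6. Knockout against Lmo2 gave 1090, and 609 with only the groups compared. Knockout against wild-type gave 110, then 2366 with array weights, 48 and 1075 against wild-type replicates 1 to 3 and 4 to 6, 190 with only the groups compared and 46 (without knockout replicate 3) to 151 (without Lmo2 replicate 2), with 52 without knockout replicate 2. Members higher between wild-type sets, 3 in the fit reported, ranged from 0 to 4 and members lower from 0 to 1 with 1 array left out, and the choice to repeat that comparison was made after seeing the data. Among the members followed gene by gene, the sign of 5 turned under some alternatives, and none of these 5 had passed the test. Members not followed in this way turned as well. Of all 41, those below 0 in Lmo2 minus wild-type arrays numbered 41 in the fit reported and 37 against wild-type replicates 4 to 6. In knockout minus Lmo2 arrays those below 0 numbered 2, and 9 without Lmo2 replicate 1. In Lmo2 minus wild-type arrays Mcm6 gave 0.19 with the mean of probes, 0.090 with the replicate block and against wild-type replicates 1 to 3, and -0.19 to 0.11 with 1 array left out. Cdc6 gave 0.012 with array weights, 0.14 against wild-type replicates 4 to 6 and -0.31 to 0.066 with 1 array left out, and Ccne2 gave 0.18 against wild-type replicates 4 to 6. In knockout minus Lmo2 arrays Mcm6 gave 0.17 with the mean of probes, Mcm2 -0.054 to 0.34 and Pcna -0.071 to 0.67 with 1 array left out. Of 936 values of the members followed gene by gene, 813 kept direction and side of the threshold, 86 lost it, 26 gained it and 11 turned. Fewer arrays or genes go with some of these changes by construction, and for the rest the cause was not tested. Pole2 is limited by signal near background.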
